A study of Mus musculus with 6 samples.

Results

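Neural crest specifiers are the transcription factors that set embryonic ectoderm at the edge of the neural plate on the path to neural crest, the migratory cells that form peripheral glia and neurons, pigment cells, much of the facial skeleton and the smooth muscle of the great arteries. A set of 10 genes, specifiers and receptors that mark crest cells, was followed here: the AP-2 factors Tfap2a and Tfap2b, the SoxE factors Sox10 and Sox9, the forkhead factor Foxd3, the factors Snai1, Snai2 and Twist1, which are known for driving the change from epithelium to mesenchyme, and the surface receptors Ednrb and Ngfr. They were chosen by name, as genes with at least 1 probe set (the group of short array probes that reports on a transcript) whose platform annotation names that gene alone. All 10 had such a probe set. They made up 10 of the 18193 genes and 22 of the 34945 single-gene probe sets on the array.

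Cells were taken from mouse embryos at embryonic day 9.0 by sorting for a yellow fluorescent reporter, Rosa-YFP, that Isl1-cre switches on, and their amplified RNA was hybridised to 6 Affymetrix arrays. The 3 wild-type samples hold YFP+ cells without stabilised β-catenin. The 3 mutant samples come from embryos with Isl1-cre, Rosa-YFP and Beta-catenin (loxP ex3), an allele whose recombined form gives a stable β-catenin, the effector of canonical Wnt signalling, in cells with Cre activity. The labels do not give how many embryos went into a sample, so the p-values rest on the spread between samples alone, which may be technical. The labels call the cells cardiac progenitors. Isl1 is known as a marker of the second heart field, and it is also expressed in pharyngeal endoderm and in motor and sensory neurons.

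Across genes, pairs of wild-type arrays correlated at 0.986 to 0.989, pairs of mutant arrays at 0.985 to 0.987, and mixed pairs at 0.979 to 0.987. The 95th percentile of bacterial control probe sets, a log2 level of 4.85, is called background here; 4067 genes averaged no more than that. Of 10 cardiac progenitor markers, the mean of Nkx2-5 did not exceed background in either group (4.82 ± 0.17 in wild type, 4.36 ± 0.20 in mutant cells, log2 mean ± SD, n = 3). Its wild-type arrays 1 and 2 read just above background, at 4.89 and 4.95. The means of the other markers exceeded it in both groups. Isl1 read 9.24, 9.36 and 9.77 in wild type and 8.72, 8.61 and 7.49 in mutant cells. The Y-linked gene Kdm5d read 9.84, 2.82 and 3.52 in wild type and 8.67, 9.92 and 9.08 in mutant cells. Xist, transcribed from the inactive X chromosome, read 5.46, 12.63 and 12.79 in wild type and 12.13, 7.54 and 12.44 in mutant cells. Wild-type array 1 was thus the sole wild-type array with a clear Y-linked signal, while every mutant array held it. The groups therefore differed in this signal as well as in genotype, and its part in the differences of the 10 genes was not tested. Mutant arrays 1 and 3 held both signals, so the values set against wild-type array 1 alone, given below, share its Y-linked signal but, for those arrays, not its low Xist.

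Canonical Wnt signalling is known to act early in neural crest formation, at the border of the neural plate, where it works with BMP and FGF signals upstream of the specifier genes. The comparison of mutant with wild-type cells asks how the specifiers stood when β-catenin was stabilised across the Isl1 lineage. In the mutant cells 8 of the 10 genes had a higher mean (44.7% over all genes) and 2, Foxd3 and Snai1, a lower mean. The largest differences were those of Snai2, Sox10 and Tfap2a, which were close to 2.20-fold, 2.10-fold and 1.91-fold higher. None of the 10 passed with adjustment over all genes (smallest adjusted p = 0.241, limma with Benjamini-Hochberg adjustment, threshold 0.05), where 12 genes, 0.066%, were called higher and 0 lower. In 5 of the 10 every mutant array read above every wild-type array, a pattern held by 8.64% of all genes. None of the 10 showed the reverse pattern, held by 9.18% of all genes. At an unadjusted p under 0.05 limma gave 6 higher and 0 lower members, against 6.76% higher and 4.84% lower over all genes. The median difference of the 10 genes was 0.42 on the log2 scale, and that of all genes tested was -0.03. In a bulk sample, a change in the number of cells of a type and a change in RNA per cell cannot be told apart.

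**Figure D1:**
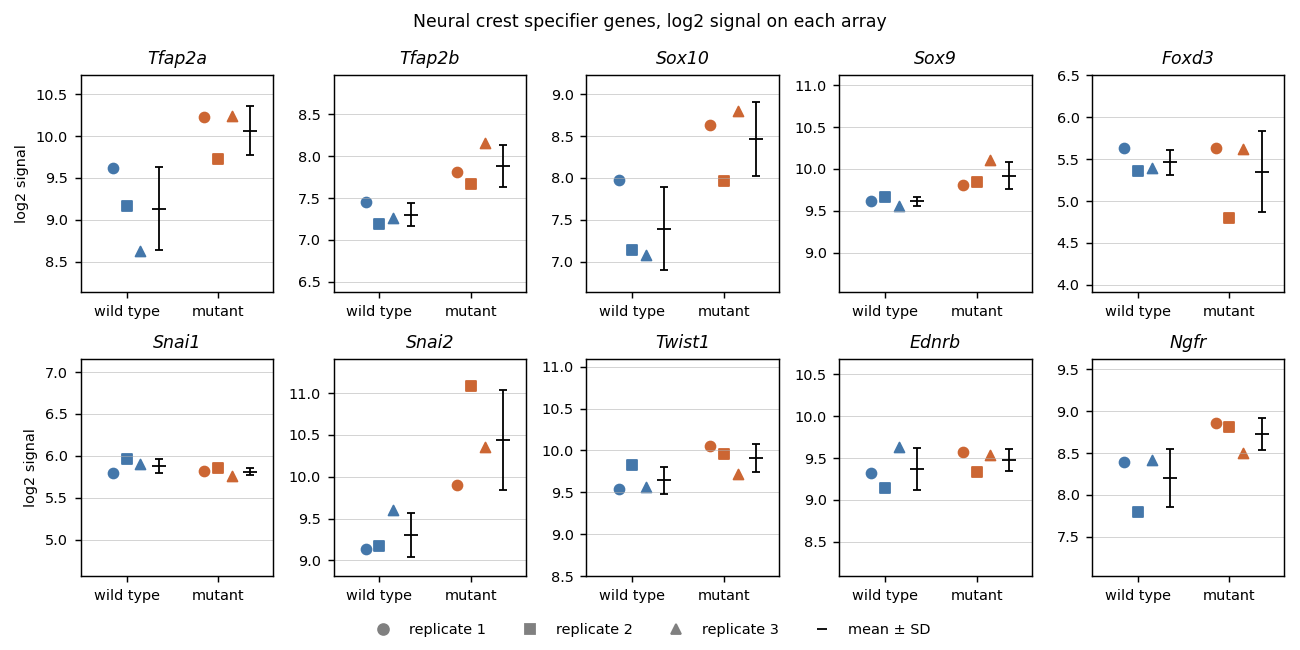
Log2 signal of each of the 10 genes on each array, for the probe set with the highest mean of the gene; circles, squares and triangles are replicates 1, 2 and 3 (wild type in blue, mutant in orange), black bars are the mean ± SD of 3 arrays, and every panel spans the same range in log2 units. The mutant points of Tfap2a, Tfap2b, Sox9, Snai2 and Ngfr lie above all wild-type points, while the groups of Snai1, Ednrb and Foxd3 overlap, with mutant array 2 of Foxd3 and mutant array 3 of Snai1 below all wild-type points.

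The AP-2 factors are among the earliest regulators of the neural crest, and Tfap2a is also made by surface ectoderm. Tfap2a read 9.61, 9.16 and 8.62 in wild type and 10.23, 9.73 and 10.24 in mutant cells (log2 signal, arrays 1, 2 and 3 of each group in turn, as in all such lists below). All mutant arrays stood above all wild-type arrays, with a gap of 0.11 between mutant array 2 and wild-type array 1, and the wild-type arrays spread more widely than the mutant arrays (9.13 ± 0.50 against 10.07 ± 0.29, mean ± SD, n = 3). The difference was 0.93 (SE 0.27, adjusted p = 0.283). The other Tfap2a probe sets gave 0.78 (SE 0.20), with groups apart, and 0.57 (SE 0.27), with groups that overlapped. The first of the 3 carries the suffix of sets whose probes can match several transcripts. Leaving out wild-type array 3, the lowest, brought the Tfap2a difference to 0.68, and leaving out wild-type array 1 brought it to 1.17.

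Tfap2b, the close relative of Tfap2a, had the least spread in its wild-type values of the genes with a difference above 0.5. It read 7.45, 7.19 and 7.26 in wild type and 7.81, 7.67 and 8.16 in mutant cells. Every mutant array was higher, and the difference of 0.58 (SE 0.16, adjusted p = 0.276) corresponds to 1.49-fold. A separate Tfap2b probe set read 7.22, 7.09 and 7.27 against 8.21, 7.71 and 8.04. On it the groups lay further apart, with a difference of 0.79 (SE 0.16). Its adjusted p of 0.216, over all single-gene probe sets in limma, was the smallest of the 22 member probe sets.

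The SoxE factors Sox10 and Sox9 act after the border is set: Sox9 comes on before the cells leave the neural tube and later directs cartilage, and Sox10 marks migrating crest and is needed for glia and pigment cells. Sox10 read 7.97, 7.14 and 7.08 in wild type and 8.63, 7.97 and 8.79 in mutant cells. Mutant arrays 1 and 3 stood above all wild-type arrays, whereas mutant array 2 was level with wild-type array 1 to 2 decimals and just below it. The difference was 1.07 (SE 0.30, adjusted p = 0.276). Both other Sox10 probe sets separated the groups, at 7.72, 7.39 and 7.39 against 8.86, 7.86 and 8.27 for the first and 6.94, 6.90 and 6.99 against 7.72, 7.22 and 7.54 for the second. Their differences were 0.83 (SE 0.25) and 0.55 (SE 0.16). On all 3 probe sets of Sox10, mutant array 2 was the lowest mutant array. Set against wild-type array 1 alone, the Sox10 mutant mean was 0.49 higher, and without that array the difference was 1.36.

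Sox9 read 9.62, 9.67 and 9.55 in wild type and 9.81, 9.84 and 10.10 in mutant cells. The groups did not overlap, though the step was small: 0.31 (SE 0.13, adjusted p = 0.431), or 1.24-fold, with wild-type values that agreed within 0.06 (SD). The other Sox9 probe sets gave 0.30 and 0.50, the last from a probe set below background throughout (means 3.55 and 4.05). Mutant array 3 held the highest value on each of the 3.

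Foxd3, a repressor that keeps crest cells multipotent and holds back pigment cell fate, was measured by a single probe set at a low level. It read 5.63, 5.36 and 5.39 in wild type and 5.63, 4.79 and 5.63 in mutant cells. Only mutant array 2 stood apart, at the lowest value of the 6, and the groups overlapped. The difference was -0.11 (SE 0.24, adjusted p = 0.877), and it was 0.17 without mutant array 2, so its direction rests on that array.

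Snai1 and Snai2 are related zinc finger repressors that bind E-box sequences and lower E-cadherin, and in the mouse Snai2 is the member of the pair made by crest cells as they migrate. Snai2 read 9.14, 9.17 and 9.61 in wild type and 9.90, 11.08 and 10.35 in mutant cells. Every mutant array was higher, and mutant array 2 was the highest by a wide margin. The difference was 1.14 (SE 0.30, adjusted p = 0.241), the 144th highest of all 18193 genes. Without mutant array 2 it was 0.82 and without mutant array 1 it was 1.41. This probe set carries the suffix of sets in which some probes can match other transcripts; the second Snai2 probe set gave 0.68 (SE 0.25), with wild-type array 3 (7.09) level with mutant array 1 (7.09) and mutant array 2 again the highest at 8.04. Snai1 read 5.79, 5.96 and 5.90 in wild type and 5.82, 5.85 and 5.76 in mutant cells. The groups overlapped throughout and the difference was -0.07 (SE 0.12, adjusted p = 0.835); that Snai2 and Snai1 differ in their response was not tested.

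Twist1, a basic helix-loop-helix factor of cranial crest and other mesenchyme, read 9.54, 9.82 and 9.56 in wild type and 10.05, 9.96 and 9.73 in mutant cells. Wild-type array 2 lay above mutant array 3, so the groups overlapped. The difference was 0.27 (SE 0.15, adjusted p = 0.515), or 1.21-fold.

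**Figure D2:**
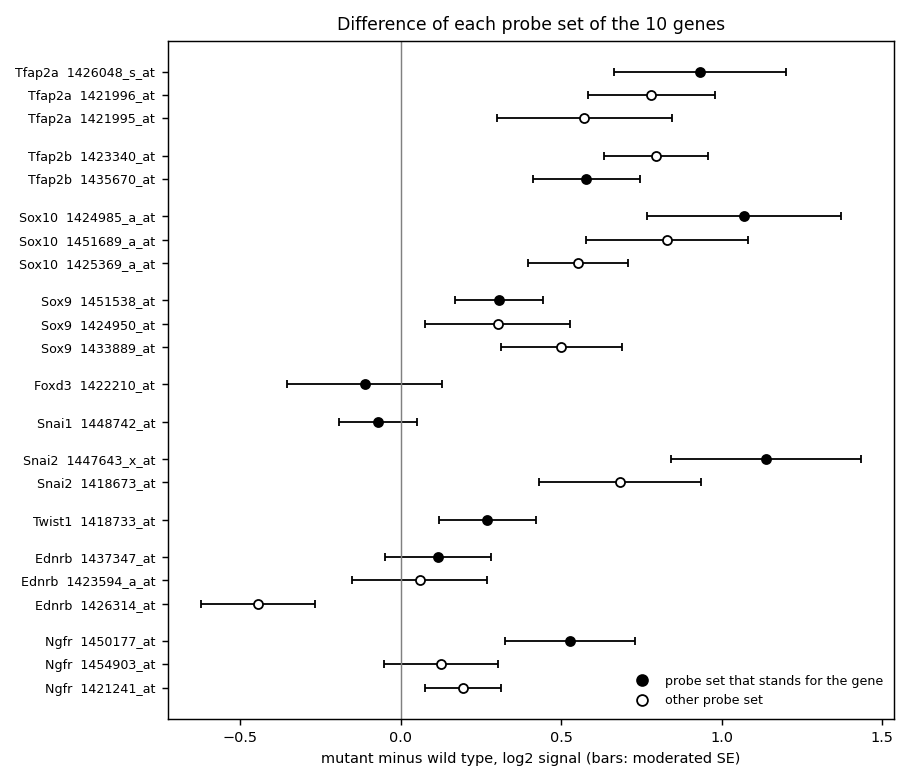
Mutant minus wild-type log2 signal of all 22 probe sets of the 10 genes, with bars of 1 moderated SE; filled points are the probe sets with the highest mean of the gene, open points the others. The probe sets of Tfap2a, Tfap2b, Sox10, Sox9, Snai2 and Ngfr all lie above 0, from 0.13 for an Ngfr probe set to 1.14 for Snai2, and those of Ednrb lie on both sides.

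The promoters of the AP-2 pair and of Snai1 are shown because the first stood higher together and the last holds the kind of E-box that its own protein binds. RefSeq's promoter table (GRCm38.p6) had entries for 7 of the 10 genes, in 8 windows since Tfap2a has 2, and none for Sox10, Sox9 and Snai2. The search covered the 250 bases before each start site, on both strands, for the E-box CACCTG, for the TCF/LEF words AACAAAG or ATCAAAG or TACAAAG or TTCAAAG, and for the AP-2 word GCCNNNGGC; no matches overlapped. Capitals mark matches, and sequences run 5′ to 3′ on the strand of the gene. They are Snai1 at chr2:167537945-167538194 on the plus strand, the more downstream start of Tfap2a at chr13:40733796-40734045 on the minus strand, and Tfap2b at chr1:19211804-19212053 on the plus strand.
Snai1: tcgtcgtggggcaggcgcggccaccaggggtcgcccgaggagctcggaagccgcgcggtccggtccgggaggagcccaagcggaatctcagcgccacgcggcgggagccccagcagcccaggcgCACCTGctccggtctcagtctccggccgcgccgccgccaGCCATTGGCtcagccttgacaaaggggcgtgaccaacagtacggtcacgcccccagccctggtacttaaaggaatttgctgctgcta
Tfap2a: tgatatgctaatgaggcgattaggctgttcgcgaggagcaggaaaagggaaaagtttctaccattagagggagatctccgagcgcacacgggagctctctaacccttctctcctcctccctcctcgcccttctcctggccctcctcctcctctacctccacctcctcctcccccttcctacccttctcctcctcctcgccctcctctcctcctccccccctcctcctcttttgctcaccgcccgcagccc
Tfap2b: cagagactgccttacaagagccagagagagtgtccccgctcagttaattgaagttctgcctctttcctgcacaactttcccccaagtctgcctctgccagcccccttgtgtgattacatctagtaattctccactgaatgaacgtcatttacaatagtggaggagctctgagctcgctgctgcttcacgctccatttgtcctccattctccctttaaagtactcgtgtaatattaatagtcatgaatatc
The Snai1 window held 1 E-box, starting 126 bases before the start site, and 1 AP-2 word, starting 87 bases before it. Ednrb held 1 AP-2 word, 195 bases before its start, and the windows of Tfap2a, Tfap2b, Twist1, Foxd3 and Ngfr held no match. No TCF/LEF word was found in the 8 windows. Over 32851 windows of the same length, 17.2% held the E-box, 14.8% a TCF/LEF word and 13.7% the AP-2 word. A match is a description of these letters, and its absence says only that they are not in this window.

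Of the receptors, Ngfr, the low-affinity neurotrophin receptor used to sort crest stem cells, read 8.39, 7.80 and 8.41 in wild type and 8.86, 8.81 and 8.51 in mutant cells. All mutant arrays were higher, by a gap of 0.09 at its narrowest, and the difference was 0.53 (SE 0.20, adjusted p = 0.390), or 1.44-fold. It was 0.33 without wild-type array 2, the lowest. The other Ngfr probe sets gave 0.13 (SE 0.18), with groups that overlapped, and 0.19 (SE 0.12), with groups apart. Ednrb, the endothelin receptor that crest cells of the gut and skin need, read 9.32, 9.14 and 9.63 in wild type and 9.57, 9.33 and 9.54 in mutant cells. The groups overlapped and the difference was 0.12 (SE 0.16, adjusted p = 0.800). A second Ednrb probe set gave 0.06 (SE 0.21). The third read 7.91, 7.56 and 8.13 against 7.50, 7.26 and 7.51 and went the other way, -0.45 (SE 0.18), with every mutant array lower. It was the sole member probe set with that pattern, against 9.04% of all single-gene probe sets. In all, 19 of the 22 probe sets had a difference above 0 (45.2% over all single-gene probe sets), 11 had every mutant array above every wild-type array (8.45%), and none passed over all of them, where limma called 0.0229% in either direction.

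The order of the mutant arrays differed among the 10 genes. Relative to its wild-type mean, Snai2 was 0.59, 1.78 and 1.04 higher on mutant arrays 1, 2 and 3. Sox10 was 1.24, 0.57 and 1.40 higher on the same arrays. Tfap2a (1.09, 0.59 and 1.11) and Tfap2b (0.51, 0.37 and 0.86) had the order of Sox10 at each array, while Ngfr (0.66, 0.61 and 0.31) and Twist1 (0.41, 0.32 and 0.08) were lowest on mutant array 3. Mutant array 2 was thus the highest mutant array for Snai2 and Snai1 and the lowest for Tfap2a, Tfap2b, Sox10, Foxd3 and Ednrb. The mean over the 10 genes, relative to wild type, was 0.50, 0.37 and 0.55 on mutant arrays 1, 2 and 3, with wild-type arrays between -0.09 and 0.12. Mutant array 1 read above every wild-type array for 8 of the 10 genes, and mutant arrays 2 and 3 for 6 each. Against wild-type array 1 alone, 9 of the 10 mutant means were higher, with a median of 0.35, and 7 genes were higher on all 3 mutant arrays. The shares of all genes with these single-array patterns were not counted, so whether such counts are unusual cannot be told.

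**Figure D3:**
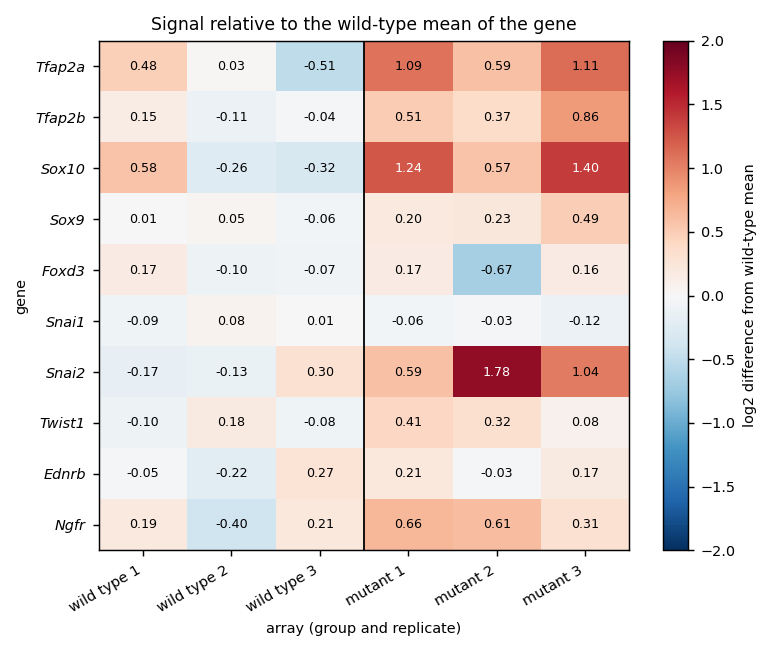
Log2 signal of each gene on each array, relative to the mean of the gene over the 3 wild-type arrays; red is higher, blue lower, and the line divides wild-type from mutant arrays. Snai2 is highest on mutant array 2 (1.78), the array on which Sox10 (0.57) and Tfap2a (0.59) are lowest among the mutant arrays and Foxd3 reads -0.67.

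The genes whose 6 array values ran closest to those of Sox10, each gene centred on its own wild-type mean, were the membrane glycoprotein Cd200 (root mean square difference 0.19), Tfap2a (0.20) and the actin-bundling protein Pls1 (0.22). Cd200 lay below background in both groups, at 3.14 and 4.20. Tfap2a ranked 2nd of all other genes by this measure and Tfap2b 112th (0.44), whereas Ngfr, Sox9 and Snai2 ranked 632nd, 1291st and 2142nd. These are descriptions over 6 arrays that share a group difference.

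The neural plate border genes precede the specifiers. Of 10 measured, 6 were higher and 4 lower, the median difference was 0.43 (0.22 without wild-type array 3), and none was called in either direction. The groups did not overlap for 4, all higher. Msx2, a homeobox target of BMP and Wnt signals, read 7.39, 7.65 and 7.69 in wild type and 8.30, 8.53 and 8.41 in mutant cells, a difference of 0.83 (SE 0.14). Tfap2c, a further AP-2 factor also made by surface ectoderm, differed by the same 0.83 (SE 0.26), though mutant array 1 (10.17) barely exceeded wild-type array 1 (10.16). The other two with groups apart, named after their values were seen, were the zinc finger factor Zic2 at 0.50 and the homeobox gene Gbx2 at 0.37. Msx1 differed by 0.68 (SE 0.26). The paired-box border genes Pax3 (-0.15) and Pax7 (-0.06) and Zic1 (-0.03), named after their values were seen, lay close to 0. Among 11 other crest regulators the median was 0.06 (0.33 with the most variable probe set of each gene, 0.17 with the mean of its probe sets, and 0.14 without mutant array 1), with 8 higher and 3 lower and 1 with groups apart, the ETS factor Ets1 at 0.44 (SE 0.14). Sox5, a partner of Sox9, stood at 0.38 and the retinoid receptor Rxrg at -0.27; no gene of this list was called.

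Genes tied to the change from epithelium to mesenchyme include both epithelial and mesenchymal ones. Of 14 measured, 11 were higher and 3 lower with a median of 0.27, and none was called. The 3 with groups apart were the junction protein Ocln, an epithelial gene, at 0.95 (SE 0.26), the crest cadherin Cdh6 at 0.49 (SE 0.14), and the small GTPase Rhob at 0.22. The epithelial adhesion gene Epcam stood at 0.48 (SE 0.22). E-cadherin, Cdh1, which the Snai proteins are known to repress, read 7.83, 8.56 and 7.57 in wild type and 7.98, 8.16 and 9.21 in mutant cells, with overlap (0.46, SE 0.37). Lower were Cdh2 (-0.11) and Vim (-0.05), mesenchymal genes, and the Snai relative Snai3 (-0.20). Other mesenchymal genes of the list were higher, with groups that overlapped: Cdh11 (0.14), Zeb1 (0.15), Zeb2 (0.22) and Twist2 (0.35). Of the genes of this list, Rhob, Cdh1, Cdh2, Vim, Snai3, Cdh11, Zeb1, Zeb2 and Twist2 were chosen once their values were known.

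The partners of the receptors were few on the array. Of 5 endothelin genes measured the median was 0.01 (-0.07 to 0.08 when an array was left out) and none was called. The ligand Edn1 read higher on every mutant array (0.45, SE 0.21), but by a gap of only 0.01 at its narrowest. The converting enzyme Ece2 read lower on every mutant array (-0.31, SE 0.16), by a gap of only 0.002. Ece1 stood at 0.32. Of 5 neurotrophin genes measured the median was -0.01 (0.46 with the most variable probe set, and -0.12 to 0.13 when an array was left out), none was called and no groups were apart, with Ntrk2 at 0.35, Ntf5 at 0.46 and Ntrk3 at -0.27. The other members of these lists were not analysed here.

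Genes of later crest fates went both ways. Branchial arch mesenchyme genes (12 measured) had a median of -0.08 (0.14 with the most variable probe set, -0.02 without mutant array 3), with 6 higher, 6 lower and none with groups apart; Msx1 stood at 0.68, Prrx2 at 0.37 and Hand2 at -0.29. Glia and melanocyte genes (8 measured) had a median of -0.16; it was 0.43 over the 3 that remained without the dimmest 40% of genes, and -0.05 without mutant array 3. The pigment genes Dct and Tyr, named after their values were seen, were no higher than background in either group. Kit, a receptor of pigment cell precursors that blood and germ cells also carry, was higher on every mutant array (0.73, SE 0.21), while Mitf stood at 0.32 and Pmel at -0.19. Autonomic and sensory neuron genes (8 measured) had a median of 0.26, which ran from 0.10 without wild-type array 1 to 0.42 without mutant array 2. Ret, the GDNF receptor of enteric crest, read 6.58, 6.22 and 6.23 in wild type and 7.43, 6.49 and 8.07 in mutant cells, and so shared the low mutant array 2 of Sox10. Phox2a stood at 0.47 and Gata3 at 0.46. Of 8 cartilage genes downstream of Sox9, 7 were higher, with a median of 0.34 (0.12 without mutant array 3, 0.14 without wild-type array 3), with Sox6 at 0.48, Sox5 at 0.38 and Col2a1 at 0.37. None of these 4 lists held a called gene.

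**Figure D4:**
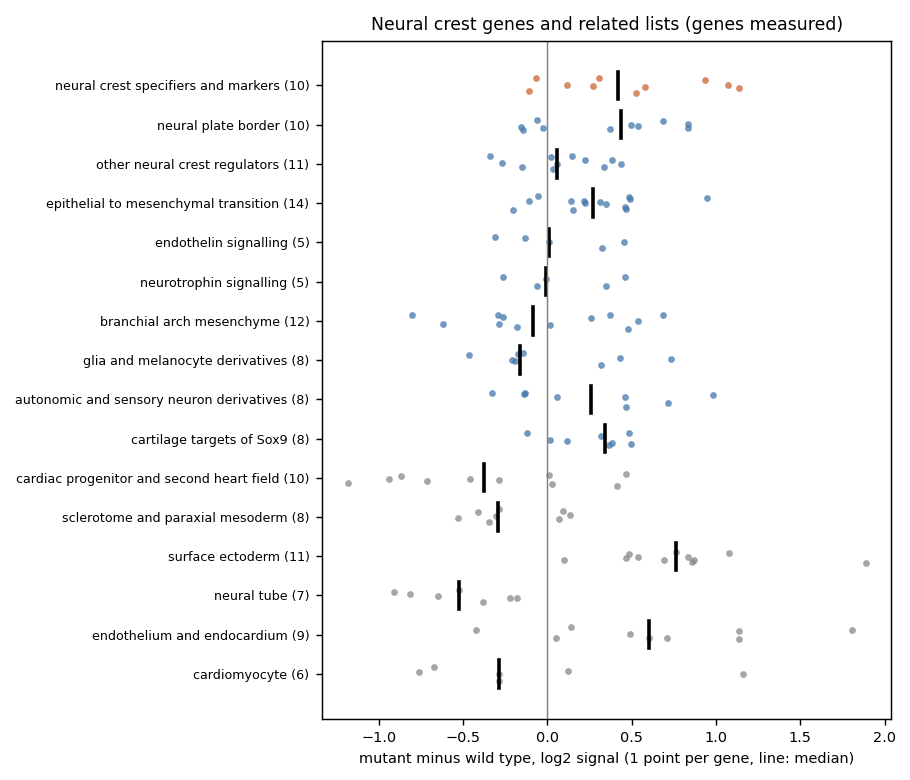
Mutant minus wild-type log2 difference of each measured gene of 16 lists, 1 point per gene and a black line at the median (orange: the 10 specifier genes; blue: related lists; grey: cell type markers). The medians of the specifiers (0.42) and the border genes (0.43) lie above 0, those of surface ectoderm (0.76) and endothelium (0.60) higher still, and those of neural tube (-0.52) and cardiac progenitors (-0.37) below.

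Several of the 10 genes are also made by other cells of the embryo, and markers of some of those cells differed between the groups. The list called surface ectoderm, a tissue that makes Tfap2a, had all 11 markers higher in mutant cells (median 0.76, 5 with groups apart, none at background in both groups). Some of its genes, such as Cdh1 and Epcam, are epithelial genes in general, and no list of endoderm was examined. Which epithelium these values come from cannot be told. Krt19, a simple epithelial keratin, stood at 1.89 (SE 0.31) and Grhl3, a regulator of surface ectoderm, at 1.08 (SE 0.29). Grhl3 lay below background on every wild-type array (4.39, 4.42 and 4.48). Krt5 and Trp63, named after their values were seen, had groups that overlapped. Krt5 stood at 0.10, and Trp63 at 0.86 (SE 0.50), where only mutant array 3 (9.76) exceeded every wild-type array. The mean level of the list ran from 7.99 to 8.51 in wild type and from 8.59 to 9.50 in mutant cells, and relative to wild type it was 0.37, 0.67 and 1.29 on mutant arrays 1, 2 and 3. The median was 0.45 without mutant array 3. Endothelium and endocardium, whose cushions make Snai2, Twist1 and Sox9 as they form, had 8 of 9 markers higher (median 0.60). The mean level of the list was 7.07 to 7.91 in wild type and 7.96 to 8.28 in mutant cells. Of the higher markers 5 had groups apart, led by Sox17 at 1.80 and Sox18 at 1.14. Without wild-type array 3 the median was 0.36. Nfatc1 was the lower marker, at -0.42 (SE 0.31), and Tek (0.05) and Emcn (0.14) differed little, all with groups that overlapped. Nfatc1, Tek and Emcn were picked with the results already in view. The part of either cell type in the differences of the 10 genes was not tested.

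Neural tube markers, expressed where crest arises, were lower for all 7 (median -0.52, with -0.19 without mutant array 3 and -0.34 without mutant array 2). Only 1 of them, Sox3 at -0.91, had groups apart, and Sox2 stood at -0.52. The mean of the list was -0.02, -0.75 and -0.81 relative to wild type on mutant arrays 1, 2 and 3, so mutant array 1 differed little. Sclerotome and paraxial mesoderm, which make Sox9 and Twist1, had 5 of 8 markers lower (median -0.30, and -0.01 without mutant array 1; Pax1 at -0.53, Tbx6 at -0.31, Nkx3-2 no higher than background in either group) and overlapping levels, 6.20 to 6.99 against 6.10 to 6.74. Tbx6 averaged 4.86 in wild type, just above background, and 4.55 in mutant cells, below it. The sclerotome median was 0.08 without the dimmest 40% of genes. Cardiac progenitor markers were lower for 6 of 10 (median -0.37; -0.59 with the most variable probe set), with Isl1 at -1.18 (SE 0.33) and Tbx20 at -0.94 (SE 0.22), and cardiomyocyte markers for 4 of 6 (median -0.29; -0.07 without wild-type array 2), with Tnnt2 at -0.76 and the natriuretic peptide gene Nppa at 1.16. No gene of these marker lists was called over all genes. The part of these cells in the differences of the 10 genes was not tested either.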

How the data were processed

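The deposited table gives log2 values of 45101 probe sets on 6 Affymetrix arrays. Per the labels, RNA was extracted with Trizol and amplified with the WT-Ovation Pico kit, which adds noise where input is small. How the authors corrected and normalized them is not stated in the sources used here. That they are log2 was inferred from their range (1.89 to 15.07; array medians 6.47 to 6.50). The sorted values of the arrays nearly coincide (largest SD at a rank 0.07), so no further scaling was done; a shift of most genes one way could have been removed before deposit.

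Names come from GEO's annotation of the platform; RefSeq's gene table supplied current symbols for 34741 of the 34945 single-gene probe sets. Left out were 932 that name several genes, 9160 with no name here and 64 controls. For each gene the probe set with the highest mean over the 6 arrays stood for it, and no dim gene was left out. Background is the 95th percentile over 27 bacterial control probe sets, each averaged over the arrays.

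Mutant and wild-type arrays were compared with limma 3.58.1 in R 4.3.3 (two-sided, by lmFit with group alone and eBayes; residual degrees of freedom 4, prior 3.45). P-values of the 18193 genes were adjusted together by Benjamini-Hochberg, with 0.05 as the threshold. A separate fit over the 34945 probe sets gave the other probe sets' values. The procedure was tested on simulated data. Differences are mutant minus wild type with moderated SE. The number of arrays limits the precision.

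The genes and lists were chosen with earlier results of these data known, so lists are given by counts and medians with no test. Named are all 10 genes, the 3 genes of each list with the smallest p (2 for marker lists, with their genes at background), and the 3 genes closest to Sox10; others are said to be named after their values were seen. Lists cover the neural plate border, other crest regulators, epithelial to mesenchymal transition, endothelin and neurotrophin signalling, branchial arch mesenchyme, glia and melanocytes, autonomic and sensory neurons and cartilage, and markers of cardiac progenitors, sclerotome, surface ectoderm, neural tube, endothelium and cardiomyocytes. Alternatives tried were a replicate block, quantile normalization, centring on the median, leaving out the dimmest 40% of genes, other ways of combining probe sets, a trended robust prior and leaving out each array. No pseudocount was needed, and no coordinates of probes are given.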

Additional observations from a re-analysis of the deposited data

How the results depend on the processing

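The 10 genes stayed short of the threshold under all 13 alternatives, or the 12 that could be run for Foxd3 and Snai1, which the filter on dim genes left out (smallest adjusted p 0.107, limma, for Snai2; the largest for Snai2 was 0.477). Sox10 ran from 0.82 to 1.36, Snai2 from 0.82 to 1.41, Tfap2a from 0.68 to 1.17, Tfap2b from 0.44 to 0.79, Ngfr from 0.28 to 0.64, Sox9 from 0.21 to 0.50 and Twist1 from 0.20 to 0.36. Only Ednrb and Foxd3 changed direction: Ednrb was -0.45 with the most variable probe set and -0.0899 with the mean of all its probe sets, and Foxd3, from -0.25 to 0.17 when an array was left out, was 0.17 without mutant replicate 2. The median of the 10 genes was 0.55 without the dimmest 40% of genes, where 8 genes stayed in, and 0.35 to 0.46 when an array was left out. Of the 10 genes, 5 or 6 were higher with groups apart in the 9 alternatives where this was counted, chosen after seeing the data: centring on the median, both other ways of combining probe sets, and leaving out each array. This was not counted under quantile normalization or without the dimmest genes. The share over all genes was not counted in the alternatives, and groups come apart more easily when an array is left out. Medians of the other lists, recomputed after seeing the data, moved with single arrays and with the choice of probe set, as given beside them.

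The 12 genes called higher over the whole table became 6 with arrays centred on their medians, 1 with the most variable probe set, 1 with the mean of all probe sets, and 0 to 81 when an array was left out (0 without wild-type replicate 2 or mutant replicate 2 or 3, 81 without mutant replicate 1), where 0 to 11 were called lower; the causes were not tested. With the replicate number as a block, 0 genes were called (limma with an unadjusted p under 0.05 gave 1185 higher, 757 lower). Deviations of same-numbered arrays from their group means correlated at 0.108, -0.075 and -0.016, and not every array correlated best with its own number. With 3 arrays per group, these correlations cannot tell whether same-numbered samples shared a litter or a batch. The number of arrays and signals near background limit what can be shown for Foxd3 and Snai1.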

Other observations

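The distal-less homeobox genes of the branchial arches and Erbb3 are given here after their values were seen. Dlx1 read 8.09, 7.38 and 7.15 in wild type and 7.88, 6.57 and 5.76 in mutant cells, a difference of -0.80 (SE 0.51). Dlx2, which arch crest expresses with Dlx1, read 10.86, 10.48 and 9.93 against 10.82, 9.64 and 9.92, and Dlx6 6.48, 5.68 and 4.38 against 5.07, 4.65 and 4.97. For Dlx1 and Dlx2, mutant array 1 read near wild-type array 1, and mutant arrays 2 and 3 read lower. Dlx5, which is also in the border list, went the other way, at 8.38, 8.25 and 6.55 against 8.61, 7.70 and 8.48, a difference of 0.54 (SE 0.49) with groups that overlapped. Erbb3, a receptor of migrating crest and glia, read 9.49, 8.86 and 8.47 against 9.52, 8.87 and 9.72. It shared with Tfap2a the order of the arrays within wild type and, with Sox10, the low mutant array 2, but its groups overlapped (0.43, SE 0.31). None of these genes passed over all genes.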
